A study of Mus musculus with 20 samples.

Results

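The genes described here encode the subunits of the 5 complexes of oxidative phosphorylation in mouse hair follicle stem cells, with a few assembly factors that share their names. They were taken by symbol: every gene whose symbol, found from the accession printed for a probe, begins with Nduf, Uqcr, Atp5 or Cox4 to Cox8, or is one of the 4 succinate dehydrogenase genes (Sdha, Sdhb, Sdhc and Sdhd). Of 22907 genes with a probe, 92 fell under this rule, and 90 of them were bright enough to be tested among 18723 genes. They comprised 36 genes of complex I and 8 of its assembly factors, 4 of complex II, 8 of complex III, 17 of 19 of complex IV and 17 of complex V. The 2 genes not tested, Cox7b2 and Cox8c, were well above background on 1 of 20 arrays each. For each gene the brightest probe was used, and 20 of the 92 genes had several probes.

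All mice were male. Normal diet (ND) or high fat diet (HFD) had been given for 3 months to mice aged 5 months, or for 4 days to mice aged 2 months, and a group called aged was 24 months old. Stem cells were sampled in telogen, the resting phase of the hair cycle, with 3 arrays for each of these 5 conditions, and in anagen, the growth phase, with 1 array per condition. No genotype, transgene or drug is named for any group. How the cells were isolated, whether RNA was pooled over animals, the composition of the diets and the diet of the aged mice are not given in the sources used here. The labels number replicates without naming separate animals. The p-values of the telogen comparisons therefore rest on the spread among the arrays of a group, which may be technical. Those of anagen against telogen rest on that spread and on how the phase difference varied between conditions, with 1 anagen array in each. No spread among anagen replicates enters them.

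Complexes I and II pass electrons from NADH and succinate to ubiquinone, complex III passes them on to cytochrome c, and complex IV, cytochrome c oxidase, hands them to oxygen. Complexes I, III and IV pump protons across the inner mitochondrial membrane, and complex V, the ATP synthase, uses the gradient to make ATP. Hair follicle stem cells in the bulge are quiescent in telogen and known for relying strongly on glycolysis, and mitochondrial activity in the follicle is known to rise with growth and differentiation.

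Values are log2 of the processed signal after division by the 75th percentile of the array, called log2 scaled signal here, so that 0 is the level of that percentile. All 20 arrays carried a measurement for each member, no spot was saturated, and 60.7% to 83.5% of spots were well above background, which means clearly brighter than their local surround. A list of 12 bulge stem cell markers, all of them tested, had a mean log2 scaled signal of 4.40 to 5.19 on the telogen arrays and 4.33 to 4.55 on the anagen arrays. All 8 proliferation markers were tested, and their mean was −1.95 to 1.56 in telogen and 2.18 to 3.30 in anagen, without overlap. Since RNA was measured in bulk, fewer cells of a type and less RNA per cell cannot be told apart. The 3-month ND and HFD telogen groups shared slide 1, the 4-day groups shared slide 2, and aged telogen lay on slide 3. On a slide the diets lay in different rows, and anagen arrays always lay in column 1, so diet and row, and phase and column, cannot be told apart.

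Most members were bright and varied little between arrays of a group. Of the 90 members, 86 were well above background on all 20 arrays, and 82 had a higher mean signal than the median gene tested. The pooled SD within telogen groups (n = 3 arrays in each of 5 groups) had a median of 0.31 over the members and 0.67 over all genes tested. It was lowest for Uqcrq, a small subunit of complex III, at 0.16, and highest for Ndufab1, the mitochondrial acyl carrier protein, at 2.25. By complex, the median SD was 0.26 for complex V, 0.28 for complexes III and IV, 0.32 for complex I and 0.35 for complex II, against 0.95 for the assembly factors. The 6 members with an SD over 1 were Ndufab1, the core subunit Ndufs1 and the assembly factors Ndufaf1, Ndufaf4, Ndufaf6 and Ndufaf8. Ndufab1 was well above background on 18 arrays, and Ndufaf4 and Ndufaf6 on 19 each.

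The members' deviations from their own mean over the 20 arrays were summarised by their median on each array. On the telogen arrays this median ran from −0.40 (aged replicate 1) to 0.33 (aged replicate 3), so that arrays of a single group spanned the whole telogen range. All 5 complexes deviated in one direction on 10 of 20 arrays, and complexes I, III, IV and V, without the 4 genes of complex II, on 14. The median of all genes tested was 0.34 on aged replicate 3, close to the members' 0.33, and −0.04 on aged replicate 1, where the members stood at −0.40. The group means of this median were 0.05 ± 0.12 for ND at 3 months, −0.05 ± 0.08 for HFD at 3 months, 0.09 ± 0.23 for ND at 4 days, −0.12 ± 0.05 for HFD at 4 days and −0.02 ± 0.37 for aged telogen (SD, n = 3 each). All 5 of these means lay within the range of the 3 aged arrays.

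**Figure D1:**
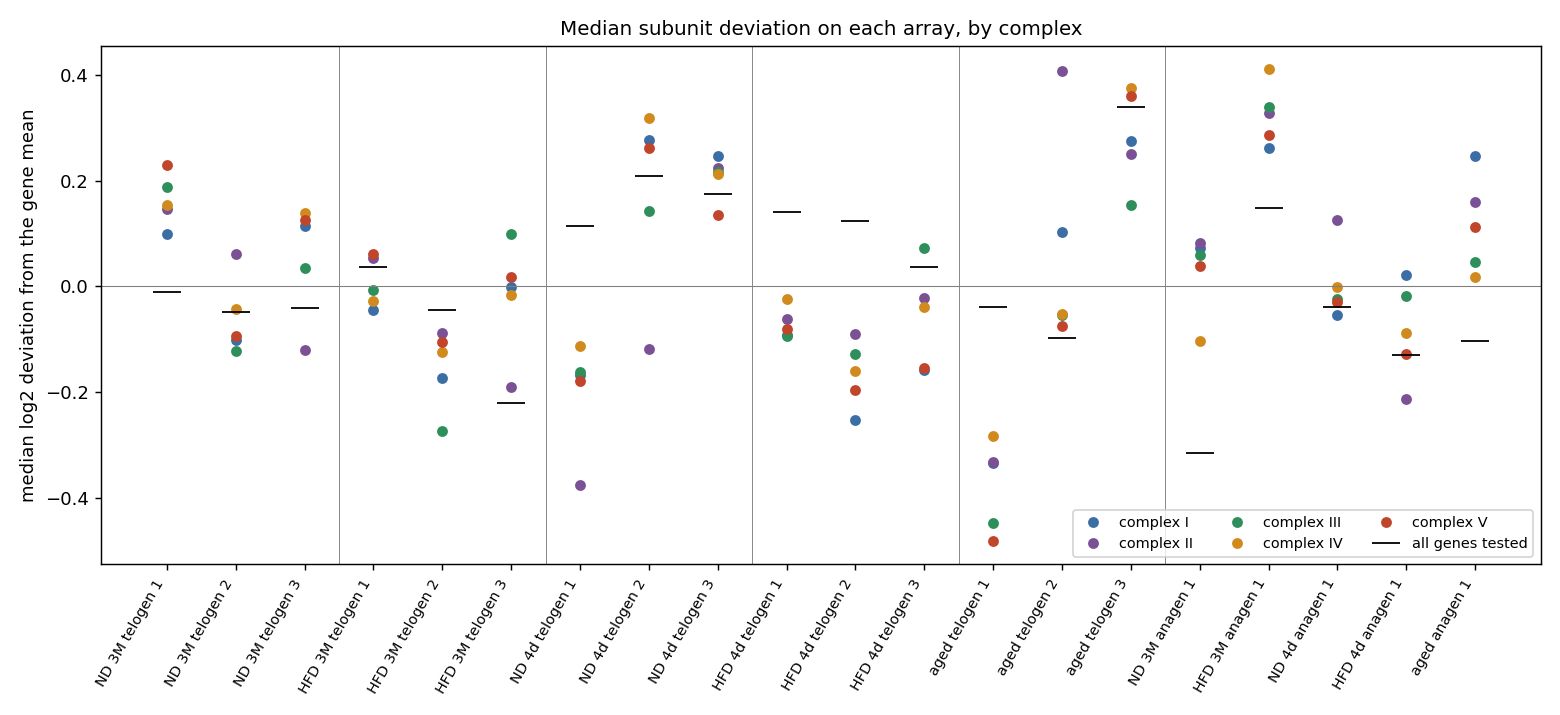
Median log2 deviation of the genes of each complex (coloured points) and of all genes tested (black bars) from their mean over the 20 arrays, plotted for every array, with vertical lines between groups. The aged telogen arrays span the range from −0.40 to 0.33 for all members together, and the medians of all 5 complexes lie on one side of 0 on 10 of 20 arrays.

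The comparison of anagen with telogen asks how the members differ between growing and resting follicles, as the mean of the differences in the 5 conditions. In anagen, 2 of the 90 members passed the test (limma, Benjamini-Hochberg adjusted p below 0.05 over all genes), both of them higher: Cox5a, a nuclear-encoded subunit of cytochrome c oxidase, and Ndufb6, an accessory subunit in the membrane arm of complex I. Of all genes tested 6.12% passed, 2.81% higher and 3.31% lower. The members' median difference was 0.09 and 58 of 90 lay above 0, while the median of all genes was −0.16 with 39.6% above 0. At an unadjusted p below 0.05 there were 10 members, or 11.1%, against 22.9% of all genes. The median half-width of the members' 95% interval was 0.38 on the log2 scale, and for 77 of 90 the interval lay within a 2-fold change either way. The share of all genes is not given for this count, and the members varied less than all genes within telogen groups (median SD 0.31 against 0.67).

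Cox5a had a log2 scaled signal of 3.55 (ND 3 months), 3.54 (HFD 3 months), 3.53 (ND 4 days), 3.48 (HFD 4 days) and 3.61 (aged) on the 5 anagen arrays. The telogen arrays read 2.56, 2.44 and 2.66 (ND 3 months), 2.63, 2.92 and 3.28 (HFD 3 months), 2.98, 2.80 and 2.58 (ND 4 days), 2.53, 2.47 and 2.33 (HFD 4 days) and 2.16, 3.06 and 2.50 (aged). Every anagen array lay above every telogen array, and the anagen values spanned little compared with telogen. The difference was 0.88 ± 0.17 (log2, SE, 95% interval 0.53 to 1.23, limma adjusted p = 0.00462), a 1.84-fold higher signal. It stayed between 0.84 and 1.09 under the alternatives, and only over the 3 conditions with both phases on one slide was the adjusted p above the threshold, at 0.0767.

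Ndufb6 read 2.87, 2.85, 3.10, 2.88 and 3.12 on the anagen arrays in the same order of conditions. In telogen it read 2.57, 2.26 and 2.60 (ND 3 months), 2.29, 2.43 and 2.06 (HFD 3 months), 2.43, 2.45 and 2.78 (ND 4 days), 2.44, 2.53 and 1.88 (HFD 4 days) and 2.00, 2.29 and 2.41 (aged). Here too the groups did not overlap, with ND 4 days replicate 3 nearest to the anagen values. The difference was 0.60 ± 0.15 (log2, SE, 95% interval 0.28 to 0.93, limma adjusted p = 0.0280), or 1.52-fold. It was no longer called with slide as a block (0.61, adjusted p = 0.0985), over the 3 conditions with both phases on one slide (0.61, 0.142), or without the anagen array of ND 3 months (0.66, 0.0558), ND 4 days (0.62, 0.0778), HFD 4 days (0.60, 0.0813) or aged mice (0.53, 0.104). Cox5a and Ndufb6 were the members with all 5 anagen arrays above all 15 telogen arrays, a pattern that 0.79% of all genes tested showed, and for 0 members did all anagen arrays lie below (0.716% of all genes). Both have a single probe. Other cell markers differed between the phases too. Of the 8 proliferation markers 7 passed, all higher in anagen. Of the 12 bulge markers 3 passed, all lower: Cd34 by −2.19, Krt15 by −0.81 and Col17a1 by −0.72. Of 7 listed fibroblast genes 5 were tested, and among these Col1a2 and Col6a1 were lower by −1.90 and −1.44 and Dcn higher by 2.44. Dcn was well above background on 0 telogen and 3 anagen arrays, so it was tested only through its anagen arrays. In 3 other lists a single gene passed. It was Krt1 of 6 tested suprabasal epidermis genes, higher by 1.26, and Dio2 of 5 tested brown fat genes, higher by 4.04. Of 4 tested red blood cell genes it was Hba-a2, lower by −1.24 (limma adjusted p below 0.05 for all markers named here). The part of any of these in the members' values was not tested.

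**Figure D2:**
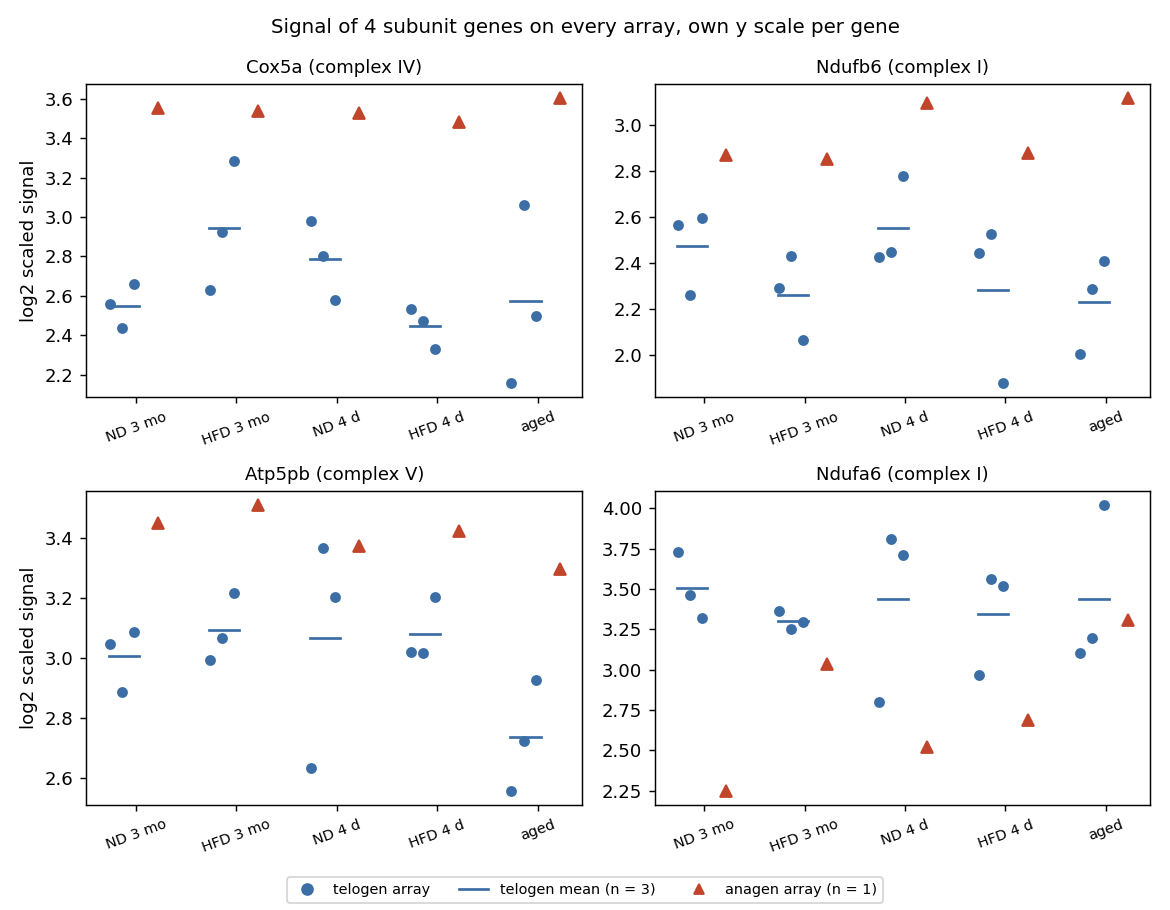
Log2 scaled signal of Cox5a, Ndufb6, Atp5pb and Ndufa6 on each of the 20 arrays, by condition; circles are telogen arrays, bars their mean (n = 3) and triangles the single anagen arrays. For Cox5a and Ndufb6 all triangles lie above all circles, while for Atp5pb and Ndufa6 the phases overlap.

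The DNA before the start sites of the called pair was set beside that of members that hold a known motif, to show what such a promoter looks like. RefSeq promoter windows (250 bases before to 50 after a start, build GRCm38.p6) were found for 74 members, 79 windows in all. A letter string was searched on both strands for each of 4 factors, none of which contains another: GCGCATGCG for NRF1 (nuclear respiratory factor 1), CCGGAAGT for GABPA (nuclear respiratory factor 2), AAGATGGCG for YY1 and TCAAGGTCA for the oestrogen-related receptors, all regulators known to act at genes of the respiratory chain. The NRF1 string was in 12.7% of the members' windows and 1.75% of all 32851 windows. The YY1 string was in 10.1% and 1.40%, the GABPA string in 6.33% and 3.89%, and the receptor string in 2.53% and 0.423%. None of the 4 strings was in the windows of Cox5a and Ndufb6. Such absence was common among the 74 members with a window. The NRF1 string was found for 10 of them, the YY1 string for 8, the GABPA string for 5 and the receptor string for 2. The 250 bases before the start are given 5′ to 3′ on the gene's strand, with a matched string in capitals, for Cox5a (chr9:57520982-57521231, + strand), Ndufb6 (chr4:40279422-40279671, − strand), Cox6a1 with its NRF1 string, matched on both strands (chr5:115348959-115349208, − strand) and Atp5g3 with its receptor string on the opposite strand (chr2:73911327-73911576, − strand).
Cox5a: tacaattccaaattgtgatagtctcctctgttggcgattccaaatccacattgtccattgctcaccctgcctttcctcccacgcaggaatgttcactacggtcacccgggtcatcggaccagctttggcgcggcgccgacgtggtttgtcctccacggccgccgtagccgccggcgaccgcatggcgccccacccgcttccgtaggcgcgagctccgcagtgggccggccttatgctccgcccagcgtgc
Ndufb6: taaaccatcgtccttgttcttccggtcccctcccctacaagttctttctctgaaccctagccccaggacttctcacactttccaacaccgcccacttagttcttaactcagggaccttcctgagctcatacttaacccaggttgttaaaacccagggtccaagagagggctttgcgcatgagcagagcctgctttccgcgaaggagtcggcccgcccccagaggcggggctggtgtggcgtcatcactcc
Cox6a1: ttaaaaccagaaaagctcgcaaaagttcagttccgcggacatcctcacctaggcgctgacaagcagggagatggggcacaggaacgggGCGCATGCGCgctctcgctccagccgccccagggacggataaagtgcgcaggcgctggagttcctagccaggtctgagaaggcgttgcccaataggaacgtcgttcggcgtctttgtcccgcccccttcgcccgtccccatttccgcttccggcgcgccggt
Atp5g3: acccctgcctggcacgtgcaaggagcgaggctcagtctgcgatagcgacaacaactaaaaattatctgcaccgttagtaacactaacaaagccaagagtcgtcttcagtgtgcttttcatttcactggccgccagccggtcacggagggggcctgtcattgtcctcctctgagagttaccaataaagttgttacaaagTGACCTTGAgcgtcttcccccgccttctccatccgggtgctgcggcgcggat
Between the phases Atp5g3 differed by 0.31 ± 0.14 and Cox6a1 by 0.07 ± 0.16 (log2, SE), and neither passed.

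Among the other members, 13 besides Cox5a and Ndufb6 had a higher anagen value in all 5 conditions, giving 15 of 90, against 9.25% of all genes tested. In complex I these were Ndufb8, Ndufc2, Ndufs1, Ndufs6 and Ndufv2, in complex III Uqcrq, in complex IV Cox7c and Ndufa4, and in complex V Atp5g1, Atp5g3, Atp5j, Atp5mpl and Atp5pb. Ndufa6, an accessory subunit of complex I, was the member with a lower anagen value in all 5 conditions, where 9.66% of all genes had that pattern.

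Atp5pb encodes subunit b of the peripheral stalk that holds the ATP synthase still. Its anagen arrays read 3.45, 3.51, 3.37, 3.42 and 3.30, and its telogen arrays ran from 2.56 through a median of 3.02 to 3.37. A single telogen array, the second of ND 4 days, reached into the anagen range. The difference was 0.41 ± 0.14 (limma adjusted p = 0.1003), and a second probe of the gene gave 0.37. It was called after quantile normalization (0.46, adjusted p = 0.0278) and with a trended, robust variance (0.41, adjusted p = 0.0389).

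Ndufa6 read 2.25, 3.04, 2.52, 2.69 and 3.31 in anagen, and 2.80 to 4.02 with a median of 3.36 in telogen. The aged anagen array lay inside the aged telogen range, and the widest gap was in ND at 3 months. The difference was −0.64 ± 0.22 (limma adjusted p = 0.0900), and it was called after quantile normalization (−0.62, adjusted p = 0.0471) and with array weights (−0.70, adjusted p = 0.0432). Ndufab1 had the widest fitted difference, 2.31 ± 1.03 (adjusted p = 0.196), with telogen values from −6.03 to 0.80. Its anagen values, −2.70 to 1.02, lay inside that span except for the highest pair.

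By complex, the median anagen difference was 0.16 for complex I (25 of 36 above 0), 0.07 for complex II (3 of 4), 0.11 for complex III (5 of 8), 0.02 for complex IV (9 of 17) and 0.15 for complex V (11 of 17). The assembly factors of complex I had a median of 0.29 (5 of 8), with Ndufaf2 at 0.97 ± 0.37 (limma adjusted p = 0.133). The core genes of each complex were fixed by name. In complex I, Ndufs1 and the FMN-binding Ndufv1 differed by 0.60 ± 0.43 and 0.38 ± 0.18. In complex II, the flavoprotein Sdha differed by 0.10 ± 0.22 and the iron-sulfur subunit Sdhb by 0.05 ± 0.17. In complex III, Uqcrc1 and the Rieske iron-sulfur protein Uqcrfs1 differed by 0.37 ± 0.26 and 0.21 ± 0.15. Cox4i1 of complex IV differed by −0.11 ± 0.24, and the core genes of the ATP synthase, Atp5a1 and Atp5b, by −0.33 ± 0.19 and 0.15 ± 0.16. Atpif1, which encodes the inhibitor of the ATP synthase and lies outside the rule, differed by 0.07 ± 0.17. None of these passed the test. A second probe for Atp5a1 gave 0.01, so its direction depended on the probe. For Sdhb the second probe, well above background on all 20 arrays, gave 0.87, and for Sdha it gave 0.29. Of 19 members with several tested probes, 3 had probes of opposite sign in this comparison and 3 had probes that differed by over 0.5.

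The members' median moved with the processing. It was 0.01 with slide as a block, with 46 of 90 members above 0, and 0.02 without the HFD 3 months anagen array, with 49 above 0, while all genes then had −0.25 in both cases. It was 0.30 when arrays were scaled by their median, with 83 of 90 members above 0, and then the median of all genes was 0.06 in place of −0.16. Relative to all genes the members lay 0.25 higher under either scaling, 0.26 with slide as a block and 0.27 without that array, and 0.18 to 0.28 over all alternatives. The members were brighter than most genes tested, with a median signal percentile of 91.65. Whether other genes as bright lay as far above all genes was not tested. Of all genes, 526 were called higher and 619 lower, and 653 and 336 with median scaling, 207 and 470 with slide as a block and 658 and 1398 without the HFD 3 months anagen array. Within the conditions the members' median difference was −0.05 at ND 3 months, 0.37 at HFD 3 months, −0.10 at ND 4 days, 0.11 at HFD 4 days and 0.08 in aged mice, where all genes had −0.35, 0.22, −0.22, −0.24 and −0.16. In ND 3 months, ND 4 days and aged mice both phases shared a slide.

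Genes around the respiratory chain were taken from lists fixed by name, and their counts stand beside the 6.12% of all genes that passed and the 22.9% at an unadjusted p below 0.05. Of 16 tested electron carrier genes, which make or carry ubiquinone and cytochrome c, 2 passed in anagen, both lower: Coq8a by −1.54 ± 0.25 and Coq5 by −1.83 ± 0.46 (limma adjusted p = 0.00150 and 0.0262). Of 9 genes for carriers, porins and uncouplers, 2 passed, both higher: the ADP/ATP carrier Slc25a5 at 0.67 ± 0.15 and Ucp2 at 1.32 ± 0.37 (0.0123 and 0.0453). Of 20 regulators of mitochondrial biogenesis only Pprc1, a coactivator related to PGC-1, passed, at 2.25 ± 0.65 (0.0492). Of 22 glycolysis genes, Eno1, Pgk1 and the hexokinase Hk2 were higher by 1.05 ± 0.21, 0.95 ± 0.18 and 1.01 ± 0.24, and the aldolase Aldoc was lower by −2.59 ± 0.45 (limma adjusted p 0.00240 to 0.0169). None of 43 further assembly factors, 20 genes of the TCA cycle and pyruvate dehydrogenase and 7 mitochondrial antioxidants passed. Of these, 8 (18.6%), 4 (20%) and 3 (42.9%) had an unadjusted p below 0.05, so the first pair of lists lay below the share of all genes. The median difference was 0.31 over 78 genes of the mitochondrial ribosome, of which 57 lay above 0, and −0.27 over 83 genes of the cytosolic ribosome, of which 77 lay below 0, where all genes had −0.16. The cytosolic ribosomal genes had another direction in HFD at 3 months, where their median deviation was 0.28 on the anagen array and 0.09, −0.08 and −0.08 on the telogen arrays. Mrps18b of the mitochondrial ribosome passed at 0.87 ± 0.25, as did Mrpl35, which was lower by −4.13 ± 0.67, and Rps24 of the cytosolic ribosome, lower by −1.31 ± 0.20.

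The diet comparisons ask whether high fat feeding changed the members in resting stem cells. No member passed after 3 months, where 0% of all genes tested passed (limma, adjusted p). At an unadjusted p below 0.05 there was 1 member against 3.9% of all genes. The members' median difference, HFD minus ND, was −0.08 with 64 of 90 below 0, and the median of all genes was −0.04 with 53.7% below 0. The median half-width of the members' 95% interval was 0.65 (log2), and for 62 of 90 the interval excluded a 2-fold change, which held for 23.7% of all genes. The groups did not overlap for 10 members, 9 lower and 1 higher on the HFD, against 5.7% and 4.15% of all genes.

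Ndufs7, an iron-sulfur subunit of complex I, read 3.61, 2.79 and 2.88 on ND and 2.57, 2.31 and 2.19 on HFD at 3 months. All HFD values lay below all ND values, and the first ND array stood above the rest. The difference was −0.73 ± 0.34 (unadjusted p = 0.0493, limma adjusted p = 0.9995). Uqcr10, a small subunit of complex III, read 4.68, 4.33 and 4.55 against 4.19, 3.83 and 3.84 (−0.57 ± 0.31). Cox7a2, the widely expressed form of a complex IV subunit, read 4.76, 4.55 and 4.77 against 4.50, 3.86 and 4.32 (−0.47 ± 0.28). The other lower members without overlap were Ndufa11, Ndufb10, Ndufb4, Ndufc1, Uqcrq and Cox7a2l, and the higher one was the assembly factor Ndufaf1 at 0.81 ± 0.81. Cox5a differed by 0.39 ± 0.28, HFD replicate 3 being the brightest telogen array of the series for this gene.

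After 4 days of high fat diet again no member passed, with 0% of all genes and 0 members at an unadjusted p below 0.05, against 4.36% of all genes. The median difference was −0.16 with 69 of 90 members below 0, and −0.05 over all genes. The groups did not overlap for 11 members, 0 higher and 11 lower on the HFD, where 3.73% and 5.97% of all genes had these patterns: Ndufa13, Ndufa5, Ndufb2, Ndufs6, Ndufs8 and Ndufv1 in complex I, Cox5a, Cox6c and Cox7a2 in complex IV, and Atp5g3 and Atp5o in complex V. Ndufv1 read 2.40, 3.06 and 2.41 on ND and 1.58, 2.18 and 2.24 on HFD (−0.63 ± 0.30), and its second probe gave −0.18. Ndufs6 read 3.76, 3.85 and 3.91 against 3.29, 3.49 and 3.44, with little spread inside either diet. Cox5a read lower on this diet at 4 days, by −0.34 ± 0.28, the opposite of its sign at 3 months. Cox7a2 was the 1 member without overlap at both durations, lower at each. Of all genes 5.7% were lower without overlap at 3 months and 5.97% at 4 days, and the share lower at both is not given here.

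Averaged over both durations, 0 members and 0% of all genes passed, and 1 member, Ndufs7 at −0.62 ± 0.24, had an unadjusted p below 0.05, against 4.29% of all genes. The members' median was −0.14, with 29 of 36 below 0 in complex I, 3 of 4 in complex II, 7 of 8 in complex III, 11 of 17 in complex IV and 16 of 17 in complex V. The assembly factors had 2 of 8 below 0. The cytosolic ribosomal genes lay below 0 in 80 of 83 cases with a median of −0.12, and the mitochondrial ribosomal genes in 49 of 78 with −0.13, while all genes had a median of −0.04. Over the alternatives the members' median for the averaged diet ran from −0.26 to −0.07. For 75 of 90 members the interval excluded a 2-fold change. The share of all genes is not given for this count, and the members' SD within telogen groups had a median of 0.31 against 0.67 over all genes. The test of whether the diet difference changed between durations called 0 members and 0% of all genes, with 0 members at an unadjusted p below 0.05 and 3.74% of all genes. Cox5a had a difference between the durations of 0.74 ± 0.40 (unadjusted p = 0.0877).

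**Figure D3:**
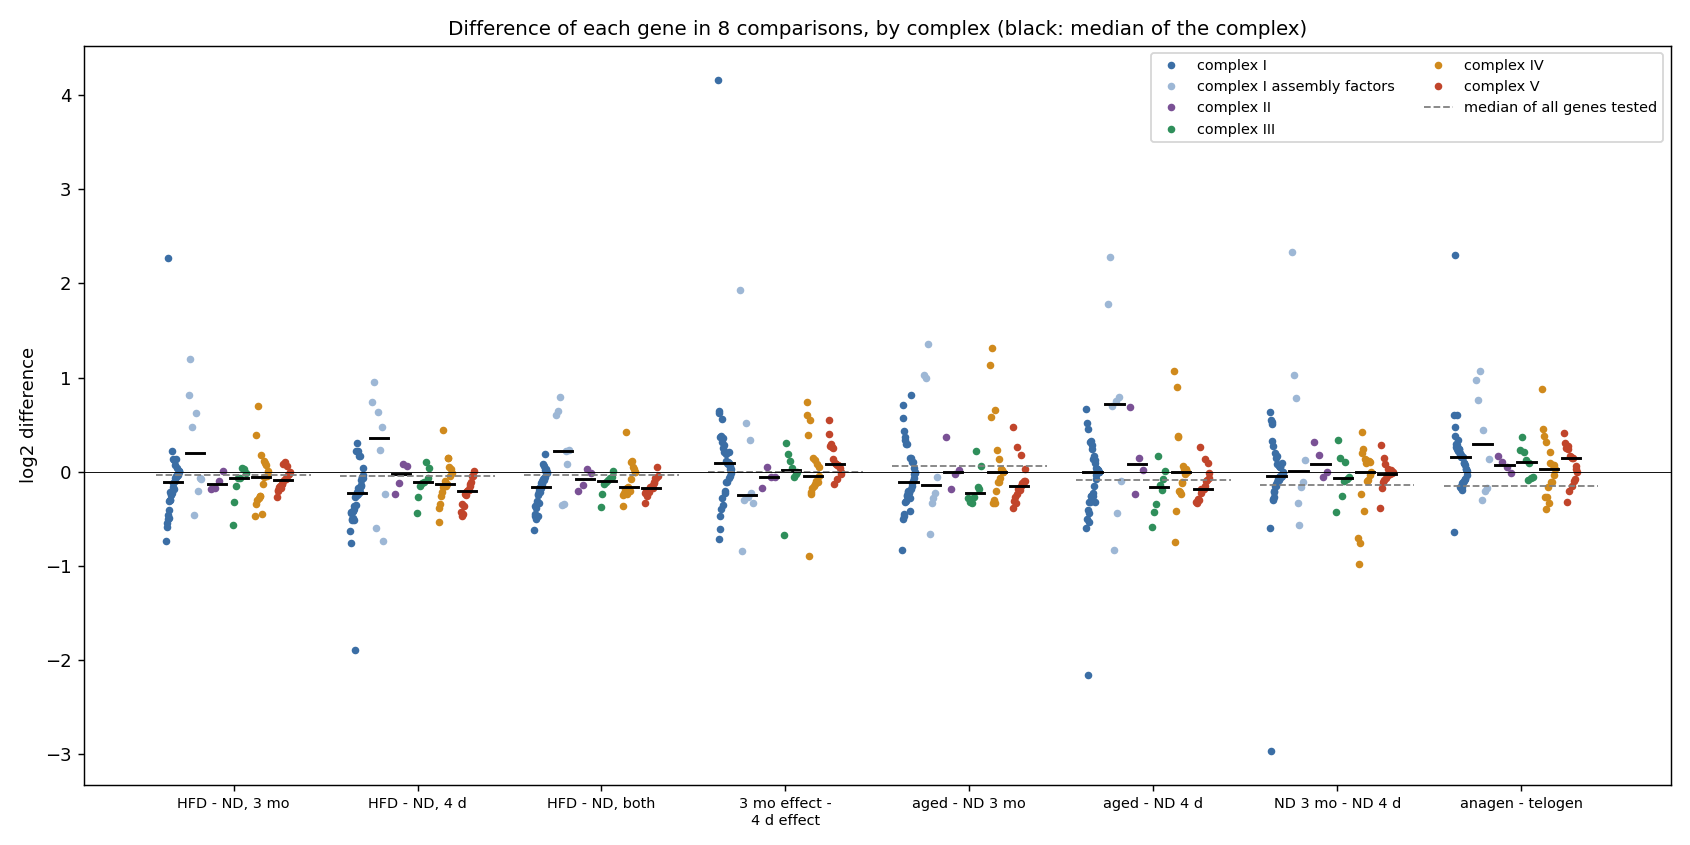
Log2 difference of each of the 90 tested genes (points, coloured by complex) in the 8 comparisons, with black bars at the median of each complex and dashed lines at the median of all genes tested. Most points lie within 1 of 0 in every comparison, and in the anagen comparison the complex medians lie above the median of all genes.

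Ageing was compared with each young ND group, which lay on other slides than the aged arrays. Against ND at 3 months no member passed, where 0.0641% of all genes did (limma, adjusted p). At an unadjusted p below 0.05 there were 3 members, Cox6a2, Ndufaf5 and Ndufc1, against 11.9% of all genes. The median difference was −0.11 with 56 of 90 members below 0, and 0.06 over all genes. It turned to 0.10 without aged replicate 1 and was −0.23 without aged replicate 3, and with slide as a block it was −0.44, where all genes had −0.29. The groups did not overlap for 9 members, 6 higher (Cox4i2, Cox6a2, Cox8b, Ndufaf1, Ndufaf5 and Ndufb9; 11.6% of all genes) and 3 lower (Ndufa1, Ndufc1 and Uqcrq; 6.46%). With slide as a block 4 of these 9 turned sign: Cox4i2, Ndufaf5 (−0.45 ± 0.99), Ndufb9 (from 0.71 ± 0.33 to −0.34 ± 0.86) and Cox8b (from 1.31 ± 0.72 to −2.17 ± 2.23).

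Ndufc1, a small accessory subunit of complex I, read 2.98, 2.94 and 2.98 at ND 3 months and 1.51, 2.21 and 2.68 in aged mice. The aged values were spread widely below a tight young group. The difference was −0.84 ± 0.36 (limma adjusted p = 0.391), and −1.28 ± 0.92 with slide as a block. Ndufaf5, an assembly factor, read 0.80, 0.65 and 0.64 against 1.85, 0.91 and 2.42 (1.03 ± 0.38, adjusted p = 0.331), and its second probe gave −0.09. Ndufa1, another membrane arm subunit, differed by −0.44 ± 0.28 from ND at 3 months and by −0.60 ± 0.28 from ND at 4 days, and with slide as a block by −1.09 ± 0.71 and −0.50 ± 0.48.

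Against ND at 4 days no member passed, where 0.0374% of all genes did, and 2 members, Uqcrfs1 and Ndufaf1, had an unadjusted p below 0.05, against 7.85% of all genes. The median difference was −0.07 over the members and −0.09 over all genes, and it turned to 0.12 without aged replicate 1. The groups did not overlap for 5 members, Ndufs6 being higher and Atp5g3, Ndufa1, Ndufb6 and Uqcrfs1 lower in aged mice, against 3.97% and 6.52% of all genes. The Rieske protein gene Uqcrfs1 read 2.75, 2.65 and 3.14 at ND 4 days and 2.41, 2.11 and 2.26 in aged mice, all lower (−0.59 ± 0.24, limma adjusted p = 0.567). With slide as a block it differed by −0.09 ± 0.44, and Ndufs6 turned from 0.51 ± 0.27 to −0.25 ± 0.46. Atpif1 differed by −0.56 ± 0.25 from ND at 3 months (−1.25 ± 0.65 with slide as a block) and by −0.49 ± 0.25 from ND at 4 days. Both ageing comparisons use the same 3 aged arrays. Between the young ND groups, which differ in age, in time on the diet and in slide, no member passed, where 0.016% of all genes did. There 2 members, Cox4i2 and Ndufs4, had an unadjusted p below 0.05, against 11.9% of all genes. Ndufa10 and Ndufs4 were higher at 3 months without overlap, and Cox4i2, Cox6a2, Cox7a1, Ndufb11 and Uqcrfs1 lower, against 4.41% and 19.8% of all genes. With slide as a block Cox4i2 and Cox6a2 turned sign, Cox6a2 from −0.76 ± 0.37 to 0.71 ± 0.65, and Ndufs4 moved from 0.64 ± 0.25 to 0.24 ± 0.44.

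Several complex IV subunits exist as a widely expressed form and a form known from particular tissues. The widely expressed Cox4i1, Cox6a1, Cox7a2 and Cox8a were well above background on all 20 arrays, and so were Cox4i2, known from lung and induced by low oxygen, and the muscle forms Cox6a2 and Cox7a1. Cox8b, a muscle and brown fat form, was well above background on 12 of 20 arrays. Cox4i2 read 0.89, 0.99 and 0.95 at ND 3 months, 1.42, 1.02 and 0.92 at HFD 3 months, 1.47, 1.89 and 1.58 at ND 4 days, 1.80, 1.71 and 1.51 at HFD 4 days and 1.23, 1.33 and 2.02 in aged mice. The ND 3 months arrays lay below all arrays of the 4-day and aged groups, and they overlapped the HFD 3 months arrays of the same slide. Of all genes 19.8% were lower at ND 3 months than at ND 4 days without overlap, and 11.6% were higher in aged mice than at ND 3 months. Cox4i2 differed by −0.70 ± 0.27 between ND at 3 months and ND at 4 days (limma adjusted p = 0.359) and by 0.58 ± 0.27 between aged mice and ND at 3 months (0.422). Cox6a2 was also lower at ND 3 months than at ND 4 days and in aged mice. It read −4.05, −3.15 and −3.58 at ND 3 months, −2.99, −2.70 and −2.82 at ND 4 days and −2.50, −2.92 and −1.96 in aged mice. The HFD 3 months group, on the same slide as ND 3 months, had a mean of −3.47, against −3.59. The Cox6a2 difference was 1.14 ± 0.37 between aged mice and ND at 3 months (limma adjusted p = 0.305). With slide as a block, a term that rests on single anagen arrays, these 3 contrasts were 0.20 ± 0.46 and −0.02 ± 0.68 for Cox4i2 and 0.11 ± 0.96 for Cox6a2.

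Cox7a1 read −2.65, −2.89 and −2.95 at ND 3 months and −2.12, −1.09 and −2.33 at ND 4 days. At HFD 3 months its mean was −2.73, against −2.83 at ND 3 months. Cox8b reached −2.15 on aged replicate 2 and −4.86 or below on the other aged arrays. A list of 12 skeletal muscle genes, 11 of them tested, had a mean log2 scaled signal of −3.27 to −2.92 at ND 3 months, −3.13 to −2.37 at ND 4 days and −3.11 to −2.50 in aged mice. In this list the actin gene Acta1, the myosin genes Myh4 and Mylpf, the troponin genes Tnnt3 and Tnnc2 and the calcium pump gene Atp2a1 were well above background on all 20 arrays, and the myoglobin gene Mb on 0. Between aged mice and ND at 3 months, 8 of the 11 tested muscle genes lay above 0, as did Cox6a2 and the median of all genes. Among them were Ckm at 0.94, Myh4 at 0.81, Tnnt3 at 0.70 and Mylpf at 0.63. The others were lower, Actn3 by −1.58, Myl1 by −0.59 and Myh1 by −0.35. The pattern was not particular to muscle, as 6 of 7 tested macrophage and Langerhans cell genes and 5 of 6 white adipocyte genes lay above 0. So did 4 of 5 tested genes in each of the smooth muscle, sebocyte and brown fat lists. In the bulge, proliferation and suprabasal epidermis lists it was 1 of 12, 1 of 8 and 1 of 6. Ckm and Myl1 were well above background on 7 telogen and 0 anagen arrays each. The brown fat list, 5 of 6 genes tested with Cox8b among them, ran from −3.39 to −2.01, −3.23 to −1.50 and −2.52 to −2.001 in these groups. Its genes Cidea, Dio2 and Otop1 were well above background on all 20 arrays and Elovl3 on 13 telogen and 5 anagen arrays, while Ucp1, its defining gene, was so on 3 telogen and 0 anagen arrays. The part of such cells in the isoform values was not tested.

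Among the remaining isoforms, Cox6b1 and its testis form Cox6b2 differed by −0.11 ± 0.23 and −0.26 ± 0.27 between anagen and telogen, and Cox7b by 0.09 ± 0.15. Cox7a2l, a factor that joins complexes III and IV, differed by −0.27 ± 0.18. Ndufa4, named after complex I and now counted with complex IV, differed by 0.46 ± 0.18 (limma adjusted p = 0.144), while Ndufa4l2, a gene induced by hypoxia, ran from −1.64 to 1.61 in telogen and reached 2.49 on the aged anagen array. The c subunit of the ATP synthase is made from 3 genes, and in anagen Atp5g1, Atp5g2 and Atp5g3 differed by 0.27 ± 0.18, −0.16 ± 0.19 and 0.31 ± 0.14. None of these isoforms passed in any of the 8 comparisons.

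**Figure D4:**
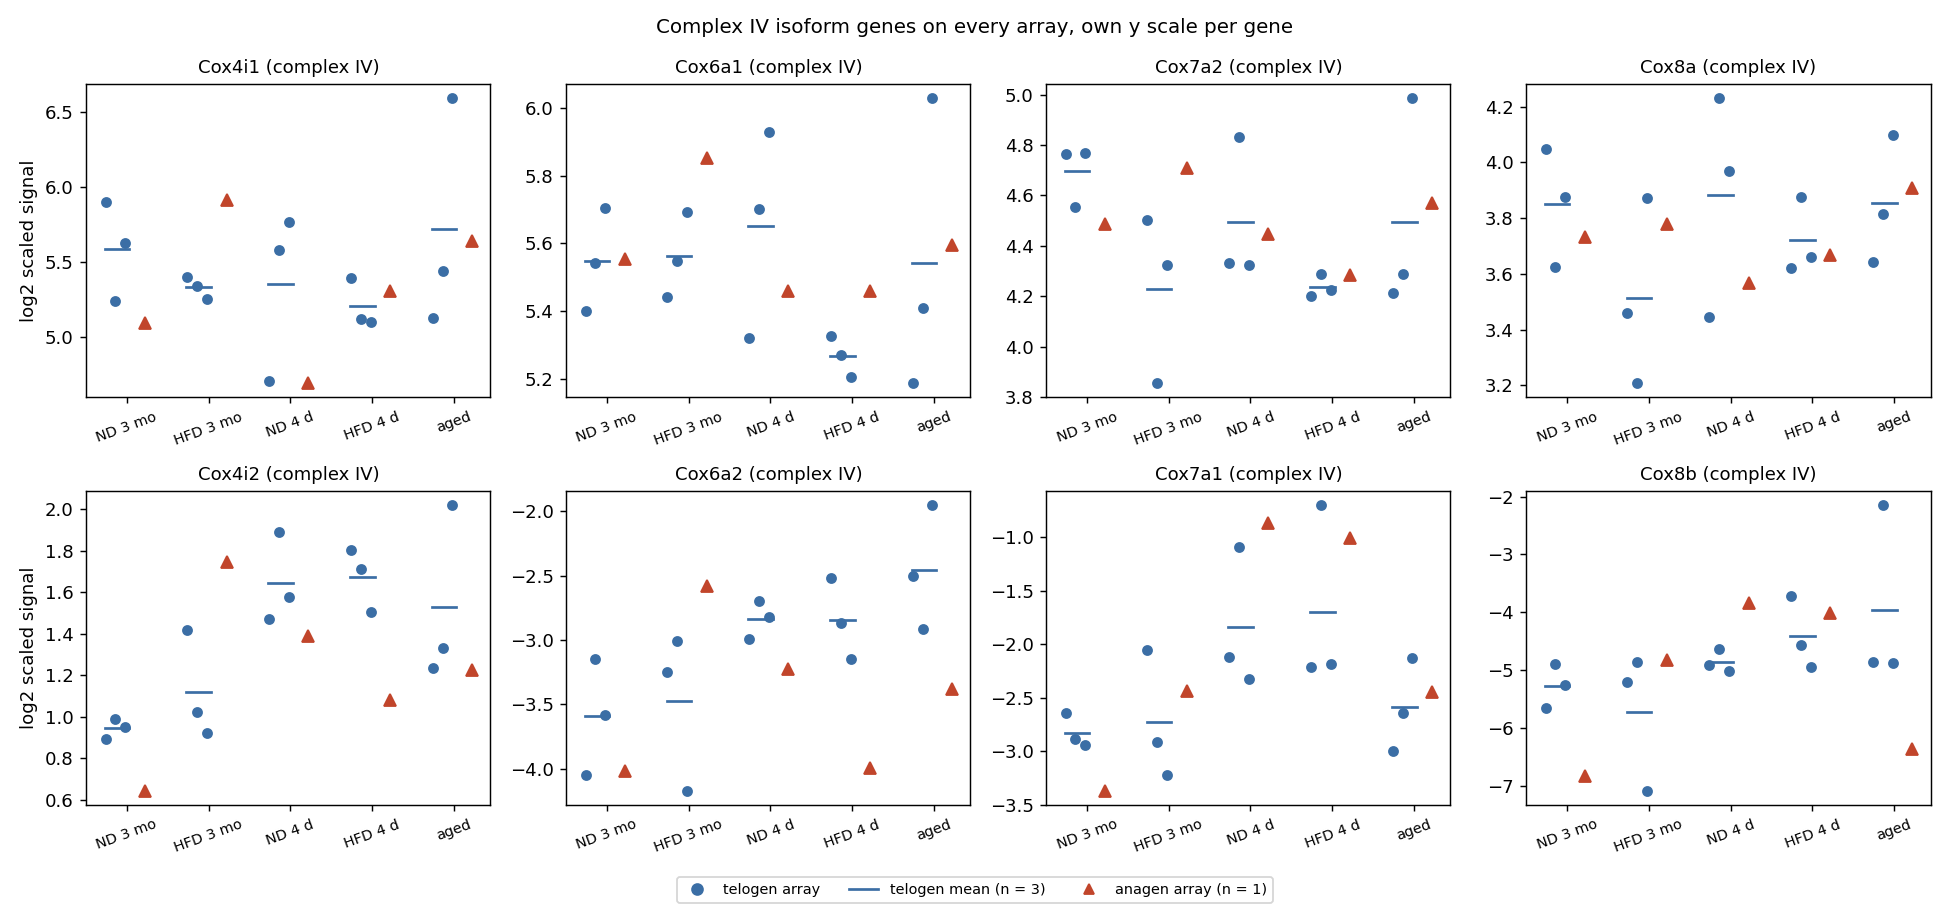
Log2 scaled signal of widely expressed (top) and tissue-restricted (bottom) complex IV isoform genes on each array, by condition; circles are telogen arrays, bars their mean (n = 3) and triangles the single anagen arrays. Each panel has its own scale, and Cox4i2 at ND 3 months reads 0.89 to 0.99, below all 4-day and aged telogen arrays. Of all genes 19.8% are lower at ND 3 months than at ND 4 days without overlap.

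In anagen each diet was measured on 1 array, so its differences have no replicate check and no test. HFD minus ND gave a members' median of 0.28 at 3 months, with 72 of 90 above 0, and −0.01 at 4 days, with 44 of 90 above 0. All genes had medians of 0.44 and −0.09. At both durations the HFD array lay on another slide than its ND array. Aged anagen minus ND anagen gave members' medians of 0.07 and 0.10 for ND at 3 months and at 4 days, where all genes had 0.26 and −0.06.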

How the data were processed

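RNA was labelled with one dye and hybridised to 20 Agilent arrays. The deposited scanner files hold an intensity per spot, the authors' processed signal after background and spatial correction by Agilent Feature Extraction 10.7.1.1, per the file headers and the submitters' processing notes, and flags for spots well above background. The deposited series table holds the same signal divided by the array's 75th percentile: it differed from that ratio by a median of 0.00494 to 0.01 (log2) per array, and its column medians were 0.088 to 0.168.

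Spots of a probe were averaged without control and outlier spots (62 to 159 outliers per array), and log2 of the processed signal was taken after scaling by the 75th percentile. Accessions were matched to RefSeq symbols (GRCm38.p6): 32989 of 56605 probes had 1 symbol and the other 23616 none. A probe was tested if it was well above background on all 3 telogen arrays of a group or on 3 anagen arrays, and the brightest such probe stood for its gene. The telogen comparisons were fitted over the 15 telogen arrays, and anagen against telogen over all 20 with condition as a term, with limma 3.58.1 in R 4.3.3, tested on simulated data, and Benjamini-Hochberg adjustment over 18723 genes (threshold 0.05). Intervals are 95%, and the number of arrays limits their precision. The members, lists and tests were chosen with earlier results of these data known. Genes named are those that passed, up to 4 per direction with the smallest p in a comparison, core subunits and isoform families fixed by name, and, as patterns chosen after their values were seen, members without overlap between groups or of one sign in all conditions. The alternatives were normexp background correction, quantile or median scaling, the percentile over probes detected on all arrays, the series table, other filters on dim probes, the mean over probes, trended and robust variances, array weights, replicate and slide blocks, fewer arrays and leaving out each array. Same-numbered telogen arrays of different groups did not deviate together (r −0.04 to 0.06), so numbers were not treated as pairs. Related pseudogenes can share sequence with a probe, which was not tested.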

Additional observations from a re-analysis of the deposited data

Results flagged for a closer look

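Sets of 5 anagen arrays were examined for an array far from the others, 61 in all, and chance alone marks about 1 in 20 such sets. The HFD 3 months anagen array stood apart in the median deviation of complex III, at 0.34 where the next array was at 0.06, and of complex IV, at 0.41 where the next was at 0.02. The all-gene median on that array was 0.15. Ndufb11, an accessory subunit of complex I, read 2.25 on the ND 3 months anagen array, below the next value of 2.94. Sdhb read 1.94 on the same array, with the next value at 2.29. Ndufc1 read 2.12 on the aged anagen array, where the next value was 2.84.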

How the results depend on the processing

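No member was called in the 145 recomputed counts of the 7 telogen comparisons, and 172 of 177 recomputed medians moved by less than 0.20, the pooled SD of the members' array medians within telogen groups. For aged against ND at 3 months the median of −0.11 was −0.38 with median scaling and −0.44 with slide as a block. For ND at 3 months against ND at 4 days it was −0.03 and became 0.36 with slide as a block, a term that rests on the single anagen arrays. The anagen median of 0.09 was 0.30 with median scaling and 0.01 with slide as a block. The count of members called in anagen was 5 after quantile normalization, 1 with slide as a block and 0 over the conditions with both phases on one slide. Leaving out 1 array at a time gave 1 to 2 called members in anagen and 0 to 0 in the telogen comparisons. The medians then ran from −0.17 to −0.06 (HFD 3 months), −0.28 to −0.10 (HFD 4 days), −0.20 to −0.09 (both durations), −0.03 to 0.19 (diet by duration), −0.23 to 0.10 (aged against ND 3 months), −0.20 to 0.12 (aged against ND 4 days), −0.15 to 0.06 (ND 3 months against ND 4 days) and 0.02 to 0.14 (anagen). The causes were not tested. With the replicate number as a block the count of called members was 0 in every telogen comparison and the medians were the same (−0.08, −0.16, −0.14, 0.06, −0.11, −0.07 and −0.03). Of 5769 recomputed values of single named members, 7 lost the call and 4 gained it, each named above, and 435, all of uncalled results, changed sign. Signals near background limit Cox8b, Cox7b2 and Cox8c.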
